A study of Mus musculus with 14 samples.

Results

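The nuclear factor I (NFI) family holds 4 genes in the mouse, Nfia, Nfib, Nfic and Nfix, and all 4 were found by symbol among the 46517 genes of the table. They were examined in 14 lung tumours from mice engineered to develop SCLC (small cell lung cancer), which arises with neuroendocrine features. In both models Rb1 and Trp53 were floxed on both alleles (fl/fl), and an adenovirus was used to delete them in the lung, its Cre driven by the Cgrp promoter of neuroendocrine cells. RPM tumours (n = 11) additionally carried a Cre-activated (LSL) Myc T58A allele, 9 of them as LSL/LSL and 2 (replicates 2 and 4) as LSL/+. RPR2 tumours (n = 3) additionally carried Rbl2 fl/fl, the gene of p130. All tumours were untreated and cut from the lung as tissue, so each library holds tumour cells with whatever other lung and stromal cells were taken along. Age was not given in the sources used here. Some titles share a leading number (RPM replicates 6 and 7, and RPM replicates 10 and 11), and the labels do not say whether these came from the same mouse. Nothing in the labels states that replicates are separate animals, so the p-values measure the spread between these samples only. Sample identifiers in the labels also fall into separate series for RPM and RPR2, so such a series and the model cannot be told apart.

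NFI proteins are transcription factors that bind DNA as homodimers or heterodimers through a shared amino-terminal domain. Their full site is a palindrome, TTGGC and its reverse complement GCCAA separated by 5 bases, and single half-sites are bound more weakly. Depending on the gene and the cell they activate or repress. Nfib is needed for lung maturation in the embryo and is a recurrently amplified gene of mouse SCLC, where it has been tied to metastatic spread. Nfia is best known from gliogenesis, Nfix from neural stem cells and muscle, and Nfic from tooth root development.

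Values are FPKM, fragments scaled by transcript length and by the mapped reads of the library, which allows levels of different genes to be compared per length. The table gives no read counts. From the steps between low values the depth was estimated at 17.2 to 20.2 M mapped reads for RPM libraries and 21.1 to 22.8 M for RPR2 libraries. For a 2 kb gene 3 reads then correspond to 0.0743 to 0.0872 FPKM in an RPM library and 0.0658 to 0.0711 in an RPR2 library (counting error only). The lowest NFI value in any library, 0.42, lies above this. RPR2 replicate 3 went against its label as a neuroendocrine tumour. Its summed FPKM over 8 neuroendocrine markers was 12.8, against 2413 and 3584 in the other RPR2 tumours and 218 to 1276 in RPM, with Chga at 0.74 and Insm1 at 0.21. Its sum over 8 alveolar type 2 markers was 51962, against 1256 and 1984 in the other RPR2 tumours and 15.6 to 892 in RPM. The main results that rest on RPR2 are given with and without it.

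Nfib and Nfix rose in RPM tumours relative to RPR2 tumours, and Nfia and Nfic did not pass the test. Mean Nfib FPKM was 3.81 times as high in RPM as in RPR2, and mean Nfix FPKM 5.12 times as high. With every library included, 2 of the 4 genes were higher and 0 were lower at an adjusted p under 0.05 (limma on log2(FPKM + 1), Benjamini-Hochberg over all 15719 genes tested). The background is high in this comparison, since 18.4% of all genes tested were higher and 22.8% lower by the same rule, 41.2% in either direction, and 49.2% had an unadjusted p under 0.05. On leaving out RPR2 replicate 3 the same 2 members were higher, against 16.4% of 15406 genes higher and 27.4% lower. In size, 9.89% of the tested genes differed more than Nfib and 4.94% more than Nfix, whereas 57.6% differed more than Nfic and 75.3% more than Nfia. In bulk tissue, fewer cells of a type and less RNA per cell cannot be told apart.

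**Figure D1:**
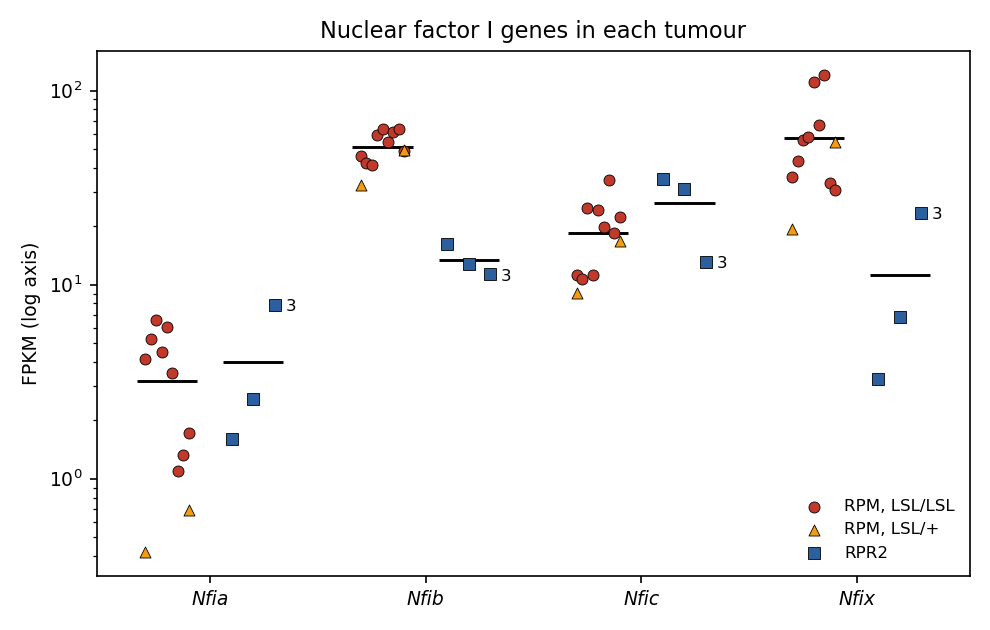
FPKM of Nfia, Nfib, Nfic and Nfix in each of the 14 tumours, on a log axis, with RPM LSL/LSL, RPM LSL/+ and RPR2 tumours drawn separately. Only for Nfib do all 11 RPM tumours (32.7 to 63.8) lie above all 3 RPR2 tumours (11.3 to 16.2).

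Nfib (chr4:82290173-82705750, minus strand, GRCm38; ENSMUSG00000008575, 12 annotated transcripts) had the narrowest spread of the family. In RPM its FPKM ran from 32.72 in replicate 2 through a median of 49.64 to 63.75 in replicate 10, with a mean of 51.1 ± 10.2 (SD, n = 11). In RPR2 it was 16.17, 12.74 and 11.3 in replicates 1, 2 and 3, a mean of 13.4 ± 2.50 (SD, n = 3). Every RPM tumour stood above every RPR2 tumour, which held for 11.1% of all genes tested in the direction of higher RPM. The log2 difference was 1.84 ± 0.192 (SE; adjusted p = 4.29e-06, limma). Without RPR2 replicate 3 it was 1.74 ± 0.222 (adjusted p = 3.78e-05, limma), nearly as large without the library that has almost no neuroendocrine markers. Within a library, Nfib ranked at the 82.0 to 90.2 percentile of tested genes in RPM and at the 52.5 to 59.7 percentile in RPR2. The highest RPM tumour exceeded the lowest by 1.95 times. On the log2 scale the SD of Nfib over RPM tumours was 0.30, below the median of 0.38 over all genes tested there, and it fell at the 50.2 percentile of genes of like level.

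Nfix (chr8:84699876-84800344, minus strand, GRCm38; ENSMUSG00000001911, 8 annotated transcripts) differed by more on average and varied far more. In RPM its FPKM ran from 19.4 in replicate 2 through a median of 54.26 to 120.9 in replicate 9, with 111.16 in replicate 7, and the mean was 57.2 ± 32.3 (SD, n = 11). In RPR2 it was 3.27, 6.78 and 23.47, a mean of 11.2 ± 10.8 (SD, n = 3). The groups overlapped at 1 point, because RPR2 replicate 3 lay above RPM replicate 2. The log2 difference was 2.45 ± 0.518 (SE; adjusted p = 0.00163, limma). Without RPR2 replicate 3 the difference rose to 3.15 ± 0.522 (adjusted p = 0.000290, limma). Within RPM the highest value was 6.23 times the lowest, and the log2 SD of 0.77 was at the 94.3 percentile of genes of like level.

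RefSeq windows (GRCm38.p6) of 250 bases before to 50 after a gene's start were matched for 3 of the 4 members, 4 windows for Nfix, 1 for Nfia, 1 for Nfic and none for Nfib. None of these windows holds the GENCODE start of its gene given here. The Nfia window (chr4:97581693-97581992) lies far upstream of that start. The Nfic window (chr10:81427124-81427423) and the Nfix windows lie far downstream of it, inside the gene. The counts below therefore do not describe the promoters at the GENCODE starts of these genes. The NFI palindrome, TTGGC then any 5 bases then GCCAA, was in 0 of these 6 windows and in 12 of 32851 promoters in all (0.0365%). The half-site TTGGC, searched on both strands, was in 3 of the 6 windows, all of Nfix, and in 46.7% of all promoters, a share near that of the 6 windows. The E-box CACGTG, the core motif bound by MYC with MAX, was in 0 of the 6 windows and 7.15% of all promoters. Each match or missing match describes these letters only. The 2 Nfix windows below are printed because they belong to the member with the largest difference, and because the first holds both half-site orientations next to each other. They are written 5′ to 3′ along the minus strand, with half-sites in capitals.
Nfix chr8:84772826-84773125: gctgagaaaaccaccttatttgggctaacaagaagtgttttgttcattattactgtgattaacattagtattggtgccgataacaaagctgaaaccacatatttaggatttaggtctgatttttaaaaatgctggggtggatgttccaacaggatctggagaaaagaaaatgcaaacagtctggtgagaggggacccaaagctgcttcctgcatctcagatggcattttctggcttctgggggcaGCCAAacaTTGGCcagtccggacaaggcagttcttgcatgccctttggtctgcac
Nfix chr8:84773361-84773660: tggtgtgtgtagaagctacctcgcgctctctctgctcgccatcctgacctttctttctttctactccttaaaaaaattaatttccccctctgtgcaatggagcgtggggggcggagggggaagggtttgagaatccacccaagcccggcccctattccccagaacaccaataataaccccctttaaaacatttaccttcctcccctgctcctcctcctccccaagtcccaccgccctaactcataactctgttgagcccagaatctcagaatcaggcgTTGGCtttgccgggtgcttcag

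Nfic (chr10:81396186-81455635, minus strand, GRCm38; ENSMUSG00000055053, 7 annotated transcripts) had overlapping levels in the models. RPM tumours ran from 9.02 in replicate 2 through a median of 18.38 to 34.7 in replicate 9, with a mean of 18.5 ± 7.82 (SD, n = 11). RPR2 tumours had 35.12, 31.03 and 13.14 FPKM, a mean of 26.4 ± 11.7 (SD, n = 3). RPR2 replicate 1 was the highest of all 14 libraries, and RPR2 replicate 3 fell in the lower part of the RPM range. The log2 difference was -0.49 ± 0.370 (SE; adjusted p = 0.311, limma). Without RPR2 replicate 3 it was -0.91 ± 0.393 (adjusted p = 0.0743, limma), a larger difference that still missed the threshold.

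Nfia (chr4:97772734-98118874, plus strand, GRCm38; ENSMUSG00000028565, 8 annotated transcripts) was the lowest member in all 14 libraries. RPM tumours ran from 0.42 in replicate 2 through a median of 3.49 to 6.57 in replicate 5, with a mean of 3.20 ± 2.25 (SD, n = 11). RPR2 tumours had 1.61, 2.56 and 7.86 FPKM, a mean of 4.01 ± 3.37 (SD, n = 3). RPR2 replicate 3 was the highest library, and the other RPR2 tumours lay inside the RPM range. The log2 difference was -0.27 ± 0.530 (SE; adjusted p = 0.716, limma) and turned to 0.24 ± 0.586 without RPR2 replicate 3 (adjusted p = 0.760, limma). Nfia had the widest relative spread in RPM, a 15.6-fold range and a coefficient of variation of 70.1%, against 56.5% for Nfix, 42.3% for Nfic and 20.0% for Nfib.

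**Figure D2:**
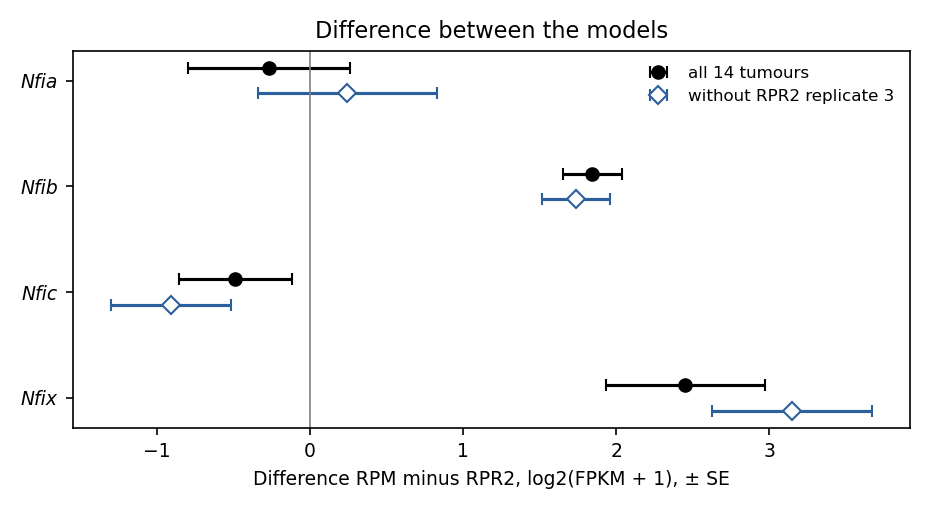
Difference between RPM and RPR2 tumours on the log2(FPKM + 1) scale for each member, with all libraries and without RPR2 replicate 3; bars are ± 1 SE. Nfib (1.84 and 1.74) and Nfix (2.45 and 3.15) lie above 0 in both fits, and Nfia changes sign (-0.27 and 0.24).

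The makeup of the family differed between the models. In all 11 RPM tumours Nfib and Nfix were both above Nfic, and Nfic was above Nfia. The order of the top pair was not fixed, with Nfix highest in 6 RPM tumours and Nfib in 5, and their RPM means (57.2 ± 32.3 and 51.1 ± 10.2 FPKM) do not differ beyond their spread. In RPR2 replicates 1 and 2 the order was Nfic, Nfib, Nfix and Nfia. RPR2 replicate 3 had Nfix first, then Nfic, Nfib and Nfia. Nfic was above Nfib in all 3 RPR2 tumours and in 0 of the 11 RPM tumours.

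As shares of the summed FPKM of the 4 genes, RPM tumours held on average 41.6 ± 8.79% Nfib, 41.5 ± 9.08% Nfix, 14.3 ± 3.80% Nfic and 2.53 ± 1.78% Nfia (SD, n = 11). Nfic held 62.5%, 58.4% and 23.6% of the sum in RPR2 replicates 1, 2 and 3, all above the RPM maximum of 21.6%. Nfib held 28.8%, 24.0% and 20.3%, and Nfix 5.82%, 12.8% and 42.1%. The Nfib to Nfic ratio, which does not depend on the scaling of a library, was 1.67 to 5.26 in RPM and 0.460, 0.411 and 0.860 in RPR2. The sum itself was 61.6 to 218 FPKM over RPM tumours, with a median of 121, and 56.2, 53.1 and 55.8 in RPR2. Those groups do not overlap in FPKM, but after scaling to TPM, which gives every library the same total, they do, since RPM replicate 2 then had 65.5 and the RPR2 tumours 107, 97.4 and 67.6.

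**Figure D3:**
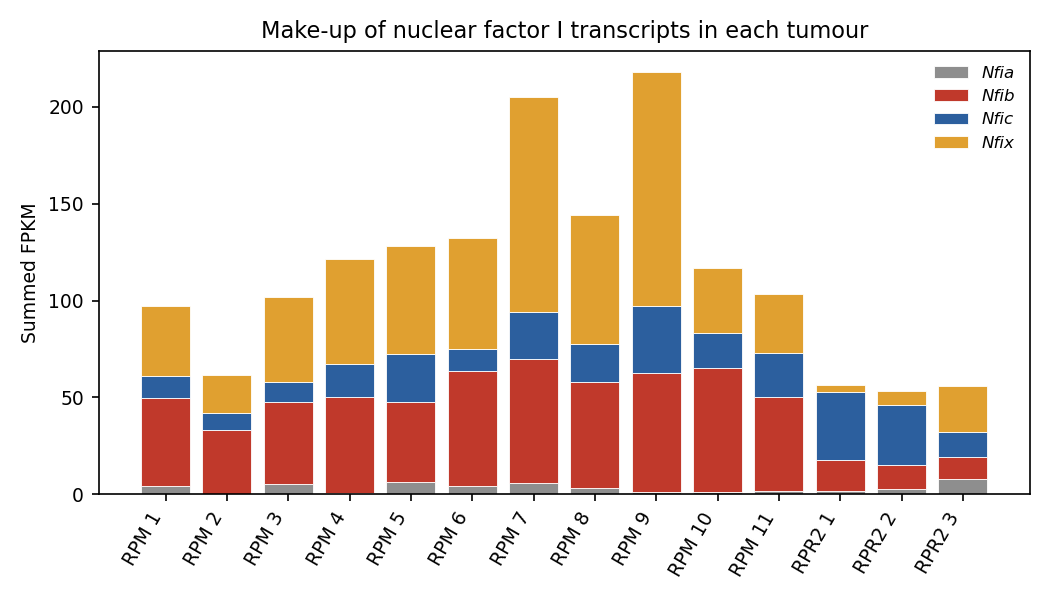
Stacked bars of the FPKM of the 4 members in each tumour, so that bar height is their summed FPKM. Nfic takes 58.4% and 62.5% of the sum in RPR2 replicates 2 and 1, 23.6% in RPR2 replicate 3 and at most 21.6% in any RPM tumour.

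Within RPM, the 9 LSL/LSL tumours were compared with the 2 LSL/+ tumours, which asks whether a second copy of the Myc allele goes with a different NFI level. None of the 4 genes passed the test, and over all 14862 genes tested 1 did (0.00673%; Pard6a, lower in LSL/LSL, named after its value was seen), while 17.3% had an unadjusted p under 0.05. Nfia came nearest. It was 0.42 and 0.69 FPKM in the LSL/+ tumours and 1.1 to 6.57 in the LSL/LSL tumours, so the groups did not overlap, as was so for 6.68% of all genes in this direction and 2.68% in the other. Its log2 difference was 1.49 ± 0.474 (SE; unadjusted p = 0.00843, adjusted p = 0.239, limma). The LSL/LSL minus LSL/+ differences of Nfib (0.38 ± 0.209), Nfic (0.54 ± 0.401) and Nfix (0.74 ± 0.514) had adjusted p-values of 0.346, 0.458 and 0.432 by limma. They rested on RPM replicate 2, being 0.083, 0.13 and 0.020 without it and 0.67, 0.95 and 1.46 without RPM replicate 4, with 1 LSL/+ tumour left in each case. RPM replicate 2, an LSL/+ tumour, had the lowest value of every member, whereas RPM replicate 4, the other LSL/+ tumour, had 49.64 FPKM of Nfib and 54.26 of Nfix, the RPM medians.

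Across the 11 RPM tumours the members were compared in 6 pairs by Pearson's r on log2(FPKM + 1), with 100000 two-sided permutations. Nfic and Nfix had r = 0.68 (permutation p = 0.0227, adjusted over the 6 pairs 0.0783) and Spearman's rho of 0.59 (permutation p = 0.0588, adjusted 0.353), and r fell to 0.32 without the 2 tumours farthest from the median of Nfic. Nfib and Nfix had r = 0.66 (permutation p = 0.0261, adjusted 0.0783) and rho of 0.50 (permutation p = 0.121, adjusted 0.362), with r = 0.73 without the 2 tumours farthest from the median of Nfib and 0.35 without the 2 farthest from the median of Nfix. Nfib and Nfic had r = 0.54 (permutation p = 0.0822, adjusted 0.164) and rho of 0.43 (permutation p = 0.186, adjusted 0.373), with r = 0.37 on leaving out the 2 most distant tumours by Nfib and 0.19 by Nfic. For Nfia with Nfib, Nfic and Nfix r was 0.13, 0.03 and 0.36, rho -0.04, 0.22 and 0.36, and the adjusted permutation p 0.831, 0.931 and 0.412 for r and 0.924, 0.609 and 0.412 for rho. On leaving out the 2 tumours with the most distant Nfia, these r became -0.46, -0.40 and 0.11. No pair passed after adjustment.

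The tumour genes most like each member were found by Pearson's r over the 11 RPM tumours among 12931 genes. These values are a description, since the genes share libraries, depth and tumour content. For Nfib the 5 highest were Akt1, a serine/threonine kinase of growth factor signalling, at r = 0.95, then Tbck, Ehbp1, Dip2c and Crtc1, the last at 0.95, and 924 genes exceeded 0.8. For Nfix they were Ivd, an enzyme of leucine breakdown, at 0.93, then Atmin, Nacc1, Zfp827 and Igfbp5 at 0.90, with 78 genes above 0.8. Nacc1, a transcriptional regulator, starts 112 kb from Nfix on chromosome 8. For Nfic they were Rps6kc1 at 0.93, Zscan29, Atp10a, Glmp and Ern1, a sensor of unfolded protein in the endoplasmic reticulum, at 0.92, with 334 genes above 0.8. For Nfia they were Gstm1, a glutathione transferase, at 0.93, Ehbp1l1, Spats2l, Dclk3 and Alpl, an alkaline phosphatase, at 0.91, with 62 genes above 0.8. Between the models, 4 of the 5 genes most like Nfic were lower in RPM, with all libraries and without RPR2 replicate 3: Zscan29 (-1.02 and -1.28), Atp10a (-0.84 and -1.13), Glmp (-1.72 and -1.32) and Ern1 (-1.87 and -2.52 on the log2 scale). Over all genes tested, 22.8% and 27.4% were lower in these fits. Akt1 was higher in RPM with all libraries (0.43, adjusted p = 0.0411, limma) and lost the call without RPR2 replicate 3 (0.26, adjusted p = 0.216), and the other 4 genes most like Nfib passed in neither fit. Gstm1 (-2.44, adjusted p = 0.0218) and Alpl (1.48, adjusted p = 0.0446, limma) of the Nfia list lost their calls in the same way (adjusted p = 0.199 and 0.153). Of the Nfix list none passed with all libraries, and Zfp827 was lower without RPR2 replicate 3 (-0.98, adjusted p = 0.0238, limma).

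Markers of some other cell types moved with the models too. The counts below stand beside 18.4% of all genes tested higher and 22.8% lower in RPM. The summed FPKM of 6 smooth muscle and pericyte markers was 110 to 236 in RPM and 42.7, 34.3 and 45.4 in RPR2, with 4 of the 6 markers higher in RPM. The lowest RPM sum exceeded the highest RPR2 sum, and 11.1% of all single genes tested separated in this direction. Acta2, the smooth muscle actin gene, ran from 53.5 to 140 FPKM in RPM, against 18.76, 10.98 and 26.04 in RPR2. Of 7 fibroblast markers 3 were higher and 1 lower, with sums of 141 to 395 in RPM and 259, 168 and 97.8 in RPR2. All 8 alveolar type 2 markers, 4 of 6 alveolar type 1 markers and 3 of 5 airway markers were lower in RPM. Of 8 neuroendocrine markers Uchl1 was higher and Calca lower, 1 of 7 endothelial markers was lower, 0 of 6 macrophage markers passed, and only 1 of 6 lymphocyte markers was high enough to test and did not pass. With RPR2 replicate 3 left out, 4 neuroendocrine markers were lower and 0 higher, and the alveolar lists had 4 of 8 and 2 of 6 lower genes. Over all genes tested, 16.4% were then higher and 27.4% lower. In that fit 3 of the 6 smooth muscle and pericyte markers were higher, since Pdgfrb lost the call (adjusted p = 0.107, limma), and the 1 tested lymphocyte marker, Cd79a, was lower (adjusted p = 0.0397, limma). In RPM replicates 2, 4 and 6, 3 of the 8 alveolar type 2 markers were at 0, and no list had all its markers at 0 in any library. The part of these cells in the NFI differences was not tested between the models. Within RPM, 36 relations of the 4 members to the sums of 9 marker lists were computed and none passed after adjustment. The smallest permutation p was that of Nfic with the endothelial sum (r = 0.72, permutation p = 0.0142, adjusted 0.394; rho = 0.79). Nfib with the fibroblast sum had r = 0.68 (adjusted permutation p = 0.394). With the smooth muscle and pericyte sum Nfib had r = 0.32 (adjusted permutation p = 0.849).

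Genes that overlap the members were examined because no strand setting of the counting was found in the sources used here, although the libraries were stranded. Gm11266, annotated as an antisense RNA inside Nfib (chr4:82508016-82547292, plus strand, GRCm38), shares 0 of its 1271 exon bases with Nfib exons. It had 6.24 to 26.67 FPKM in RPM (median 20.44) and 0.79, 0.77 and 1.65 in RPR2. The groups did not overlap, as for 11.1% of all genes tested in this direction. The log2 difference was 3.08 ± 0.386 (SE; adjusted p = 2.27e-05, limma). It was 3.27 ± 0.454 without RPR2 replicate 3. Its lowest RPM values, 6.24 and 6.9, were in replicates 10 and 11, whose titles share a leading number. Nfib was 63.75 and 48.64 there, against an RPM median of 49.64. The relation of Gm11266 to Nfib over RPM tumours was not tested. Reads from unspliced Nfib transcripts and from Gm11266 cannot be told apart if strand was not used. E130114P18Rik, on the other strand at the 5′ end of Nfia with 4 shared exon bases, was 17.85 in RPM replicate 3 and at most 2.84 elsewhere. Gm16104, antisense to Nfic with 72 shared exon bases, had an adjusted p of 0.104 (limma). On the other strand at Nfix, G430095P16Rik shares 137 exon bases with it and Lyl1 shares 4, and both were too low to test.

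The chromosomal neighbours of the members were read as a description of their surroundings, taking protein-coding genes that start within 1 Mb. Of 150 such genes 119 were tested, 28 were higher in RPM and 24 lower, against 18.4% and 22.8% over all genes tested. Their median log2 difference was 0.09, against -0.06. Without RPR2 replicate 3, 28 were higher and 18 lower of 116, against 16.4% and 27.4% over all genes tested. Around Nfib 6 of 7 genes were tested, and Snapc3, a subunit of the snRNA-activating complex, was higher by 0.49 ± 0.172 (SE; adjusted p = 0.0328, limma). RPM tumours had 9.59 to 16.44 FPKM of Snapc3 and RPR2 tumours 10.69, 11.33 and 7.26. It lost the call without RPR2 replicate 3 (adjusted p = 0.170, limma) and after TPM scaling (adjusted p = 0.407, limma). The other tested Nfib neighbours were Zdhhc21 (0.13), Cer1 (1.51), Psip1 (0.66), Ttc39b (-1.07) and Ccdc171 (-0.36 on the log2 scale), and none passed. Ttc39b was lower without RPR2 replicate 3 (adjusted p = 0.00848, limma).

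Around Nfix 12 of 47 tested genes were higher and 9 lower, or 15 and 6 of 45 without RPR2 replicate 3. For this and the other neighbourhoods, the shares over all genes were 18.4% and 22.8% with every library. Without RPR2 replicate 3 they were 16.4% and 27.4%. The higher ones with the smallest p were Farsa, a phenylalanyl-tRNA synthetase subunit (1.24), Gpt2, an alanine aminotransferase (1.30), Prdx2, a peroxiredoxin (1.04) and Dhps, an enzyme of hypusine synthesis (1.51). The lower ones were Dnase2a, a lysosomal DNase (-2.29), 2210011C24Rik (-4.04), Junb, an AP-1 subunit (-2.01) and Cc2d1a (-1.10). Farsa, which starts 56.6 kb from Nfix, had 42.61 to 82.53 FPKM in RPM tumours against 18.62, 26.09 and 32.85 in RPR2 tumours. These groups did not overlap, as for 11.1% of all genes tested in this direction. The named Nfix neighbours passed without RPR2 replicate 3 too, except 2210011C24Rik, which then missed the filter on low values. Around Nfic 15 of 64 tested genes were higher (13 of 63 without RPR2 replicate 3), among them Lingo3 (3.19), Gng7, a G protein gamma subunit (2.23), Thop1, a peptidase (1.61) and Sgta, a co-chaperone (0.87). Another 14 were lower (11 without RPR2 replicate 3), among them Tjp3, a tight junction protein (-3.96), Smim24 (-1.68), Zbtb7a, a zinc finger repressor (-1.65) and Izumo4 (-1.45). Around Nfia 2 of 6 genes were tested, and Patj, a cell polarity scaffold, was lower in RPM (-1.28 ± 0.410 on the log2 scale, SE; adjusted p = 0.0216, limma), with adjusted p = 0.0698 without RPR2 replicate 3.

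**Figure D4:**
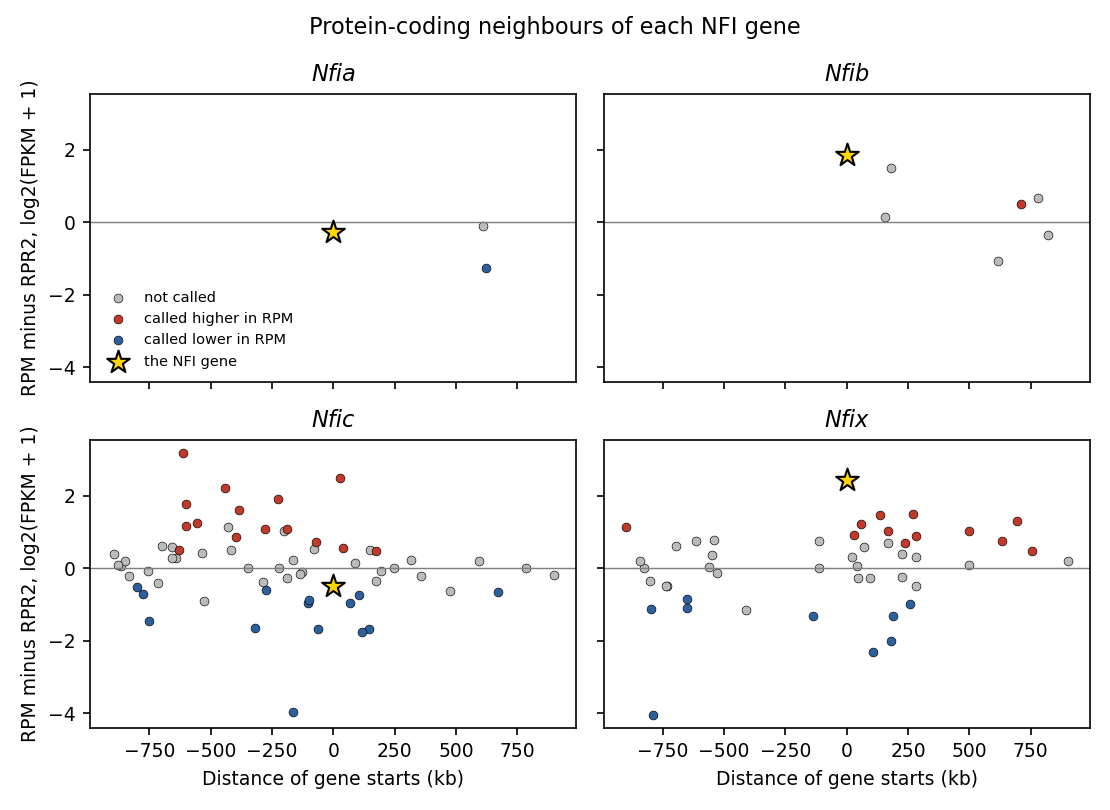
Difference between RPM and RPR2 on the log2(FPKM + 1) scale for protein-coding genes within 1 Mb of each member, against the distance between start sites in kb (positive towards higher coordinates); each panel holds 1 member at distance 0. Nfib (1.84) stands above Snapc3 (0.49) and its other tested neighbours, and the surroundings of Nfic and Nfix hold genes in both directions.

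Genes reported as NFI targets in other tissues were taken as a list of 18, of which 13 were tested. In RPM 2 were higher and 4 lower, against 18.4% and 22.8% over all genes tested, and the list's median log2 difference was -0.69, against -0.06. The counts without RPR2 replicate 3 were 1 and 4, against 16.4% and 27.4% over all genes tested. The median was -0.74, against -0.20. Ezh2, the histone H3 lysine 27 methyltransferase of Polycomb and a gene repressed by NFI proteins in neural progenitors, was 75.5 to 126 FPKM in RPM (median 89.7) and 56.5, 51.9 and 46.0 in RPR2. It was higher by 0.82 ± 0.153 (SE; adjusted p = 0.000596, limma) with no overlap, as for 11.1% of all genes tested in this direction. Apcdd1, a Wnt inhibitor and NFIA target in gliogenesis, was 3.21 to 9.46 in RPM and 2.92, 2.41 and 0.33 in RPR2. Its difference of 1.11 (adjusted p = 0.0156, limma) lost the call without RPR2 replicate 3 (adjusted p = 0.124, limma) and after TPM scaling (adjusted p = 0.0854, limma).

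Hes1, a Notch effector and repressor of neural differentiation, was 2.05 to 14.5 FPKM in RPM (median 3.81) and 18.35, 41.5 and 60.45 in RPR2. RPM minus RPR2 was -2.73 ± 0.439 on the log2 scale (SE; adjusted p = 0.000193, limma). Efnb1, a membrane ligand of Eph receptors, was 1.75 to 7.42 in RPM and 10.1, 21.03 and 19.3 in RPR2, a difference of -1.86 ± 0.292 (SE; adjusted p = 0.000155, limma). Both sets of groups were free of overlap, as held for 13.6% of all genes tested in the direction of lower RPM. Cdkn1a, the gene of the cell cycle inhibitor p21, was 12.31 to 58.73 in RPM and 96.26, 74.21 and 37.68 in RPR2, with overlap at RPR2 replicate 3 and a difference of -1.53 (adjusted p = 0.00281, limma). Bbx, an HMG-box protein gene, differed by -0.91 (adjusted p = 0.0291, limma; 0.0527 after TPM scaling). Without RPR2 replicate 3 the differences of Ezh2 (0.75), Hes1 (-2.37), Efnb1 (-1.74), Cdkn1a (-1.91) and Bbx (-1.29) passed as well. The genes that did not pass with all libraries were Cdh2, Fabp7, Zcchc24, Insc, Pdpn, Nfatc4 and Klf4, and Gabra6, Cntn2, Gfap, Mmd2 and Edn2 were too low to test. Cdh2, the gene of N-cadherin, was 16.41 to 45.75 in RPM and 37.75, 29.66 and 0.14 in RPR2, so its difference of 1.58 (adjusted p = 0.0906, limma) rested on RPR2 replicate 3 and was -0.06 without it.

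Promoter windows were found for 14 of the 18 target genes, 15 windows in all, of which 12 (80.0%) held a half-site, against 46.7% of all promoters. The palindrome was in 0 of the 15. This count is a description of the list. Windows of Ezh2 (minus strand) and Efnb1 (plus strand) are printed because these are the higher and the lower target with the smallest p. Neither window holds the GENCODE start of its gene, the Efnb1 window lying just upstream of it and the Ezh2 window just downstream. Half-sites are in capitals, 3 in Ezh2 and 2 in Efnb1.
Ezh2 chr6:47594981-47595280: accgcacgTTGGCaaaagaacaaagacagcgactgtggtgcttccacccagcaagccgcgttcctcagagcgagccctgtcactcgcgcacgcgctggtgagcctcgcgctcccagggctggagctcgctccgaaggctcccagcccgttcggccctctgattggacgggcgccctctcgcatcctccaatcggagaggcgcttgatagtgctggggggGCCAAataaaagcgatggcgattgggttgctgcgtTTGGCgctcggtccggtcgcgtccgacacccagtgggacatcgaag
Efnb1 chrX:99135811-99136110: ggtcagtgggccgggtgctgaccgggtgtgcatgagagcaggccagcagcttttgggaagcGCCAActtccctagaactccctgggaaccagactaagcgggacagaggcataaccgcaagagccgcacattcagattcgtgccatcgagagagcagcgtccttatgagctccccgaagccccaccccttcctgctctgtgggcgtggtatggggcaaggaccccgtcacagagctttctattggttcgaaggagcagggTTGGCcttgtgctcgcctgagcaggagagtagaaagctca

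Transcription factors and receptors reported to act with or upstream of NFI proteins formed a list of 9, of which 7 were tested. In RPM 0 were higher and 5 lower, against 18.4% and 22.8% over all genes tested. The list's median log2 difference was -1.11, against -0.06. Foxa2, a pioneer factor of foregut endoderm, was 8.32 to 47.2 FPKM in RPM (median 29.8) and 108, 139 and 60.6 in RPR2. The groups did not overlap, as for 13.6% of all genes tested in this direction. The difference was -1.71 ± 0.406 (SE; adjusted p = 0.00360, limma). Foxa1, its close relative, was 17.44 to 42.86 in RPM and 90.26, 89.39 and 29.61 in RPR2 (-1.09; adjusted p = 0.0152, limma). Notch1, a Notch receptor (-1.11; adjusted p = 0.0124), Gata6, a factor of lung endoderm (-1.54; adjusted p = 0.0163) and Nkx2-1, the lung lineage factor (-1.11; adjusted p = 0.0174), were lower by limma too, and each lost the call without RPR2 replicate 3 (adjusted p = 0.0788, 0.0890 and 0.159). Without that library 3 were lower, Foxa1 (-1.62), Foxa2 (-2.05) and Sox2 (-2.25), against 27.4% of all genes tested. The list's median was then -0.80, against -0.20. Sox2, a factor of neural and airway progenitors, was 5.96 to 20.5 in RPM and 58.9, 71.7 and 0.24 in RPR2. Nkx2-1 is the only called partner named outside the rule for named genes, chosen after its value was seen. With quantile normalization Gata6 (adjusted p = 0.0533) and Notch1 (adjusted p = 0.0612) missed the limma threshold, as did Nkx2-1 with median-of-ratios scaling (adjusted p = 0.0634).

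**Figure D5:**
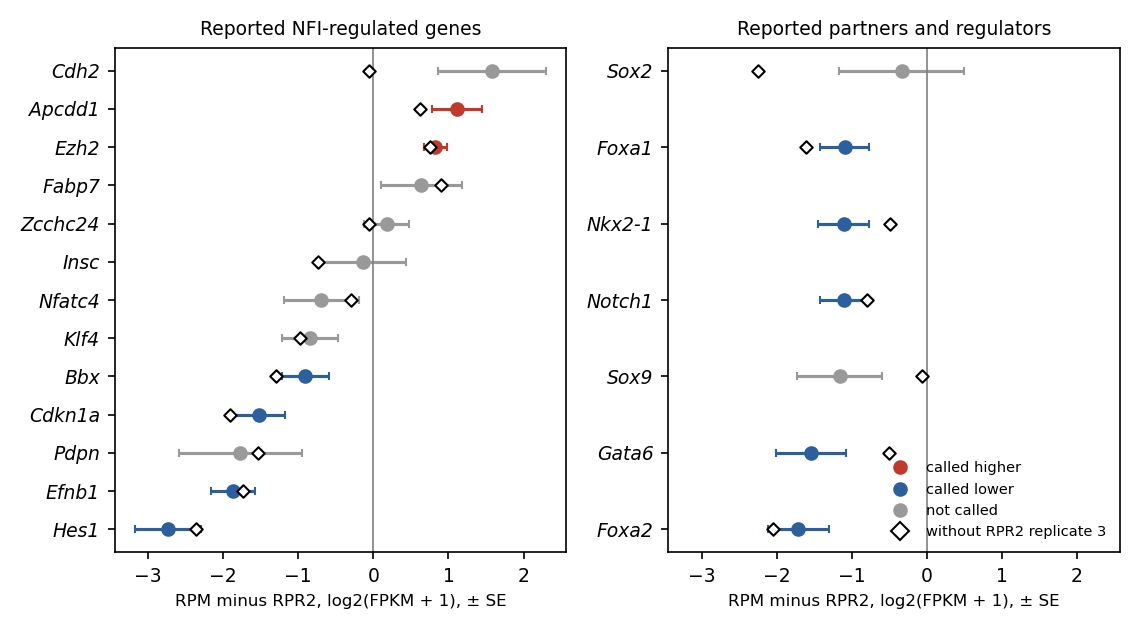
Differences between RPM and RPR2 on the log2(FPKM + 1) scale for the tested genes of the target list (left) and the partner list (right), with all libraries and without RPR2 replicate 3. Hes1 (-2.73) and Efnb1 (-1.86) lie lowest among the called targets, and Sox2 moves from -0.34 to -2.25 when RPR2 replicate 3 is left out.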

How the data were processed

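RNA of 14 tumours was measured by poly(A)-selected, stranded, single-end RNA-seq, per the labels' protocols. The authors deposited 1 table of FPKM values per gene. Bowtie 1.0.1, RSEM 1.2.12 and mm10 are named, per the submitters' processing notes, without their roles. No annotation release, strand setting or scaling was found in the sources used here. Reads matching several genes are shared out by RSEM. Symbols were found for 46005 of 46517 identifiers, coordinates are from GENCODE on GRCm38, the same assembly, and promoters from RefSeq. A reporter row listed at 0 throughout was left out.

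Genes that reached an FPKM of 1 in 3 or more libraries were tested as log2(FPKM + 1) with limma 3.58.1 in R 4.3.3 (empirical Bayes with trend, Benjamini-Hochberg, threshold 0.05), after checking on simulated data. Depth was estimated from low values at a read length of 50, where 71.1% to 85.1% of RPM and 75.9% to 84.8% of RPR2 values lay within 0.15 reads of a whole number, and no count model was used. The members and lists were chosen with earlier results of these data known. Named genes are the members, up to 4 called genes per list or neighbourhood and direction by smallest p, the 5 most correlated genes per member, and defining markers. A few genes of the lists are not reported by name here and stay in the counts and sums.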

Additional observations from a re-analysis of the deposited data

Results flagged for a closer look

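Values of the members and of the target and partner genes were screened in the 9 LSL/LSL tumours for a lowest or highest tumour far from the rest (Dixon's ratio on the log2(FPKM + 1) scale at its 95% critical value). Of 29 genes looked at 6 stood out, 0 of them members, and chance flags about 5% of groups. In RPM replicate 5, Cdh2 was the lowest at 16.41 FPKM, and Nfatc4 (10.16), Notch1 (4.82), Pax6 (2.26) and Gfap (0.67) were the highest. RPM replicate 3 had the highest Fabp7, 13.03 FPKM. In RPM replicate 5 the summed neuroendocrine markers were also the lowest of the 11 RPM tumours, 218 FPKM.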

How the results depend on the processing

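Nfib and Nfix were higher in RPM with an adjusted p under 0.05 in 25 of 25 alternatives each (pseudocounts, filters, scalings, array weights, an exact Wilcoxon rank-sum test, the shared title number as a random effect, LSL/LSL tumours only, and each library left out). Their log2 differences ran from 1.67 to 2.04 and from 1.89 to 3.15, with adjusted p up to 0.0222 and 0.0365. In the main fit 18.4% of all genes tested were higher. Nfia passed in none of 24 and was not tested under the filter on mean FPKM of at least 5. It turned to 0.15 with array weights and 0.0013 with LSL/LSL tumours only, and ran from -0.64 to 0.24 on leaving out 1 library, the last without RPR2 replicate 3. Nfic passed with array weights only (-0.70, adjusted p = 0.00754, limma), a setting under which 10867 of all 15719 genes tested passed. The count of higher genes fell to 1878 with TPM scaling, where the median of all genes moved from -0.06 to -0.23 and 34.4% of calls were higher, against 44.7%. The count of lower genes was 2171 at a mean FPKM of at least 5, 6577 with array weights, and 2360 to 4227 on leaving out 1 library, the lowest without RPR2 replicate 2. For LSL/LSL against LSL/+, genes called higher numbered 4 and 9 at pseudocounts of 0.1 and 0.01 and 0 to 6 on leaving out 1 tumour, and genes called lower numbered 30 with no filter, 0 with TPM scaling, quantile normalization, array weights or the Wilcoxon test, and 0 to 1 on leaving out 1 tumour. Where 1 LSL/+ tumour was left out, the lone one is assumed to vary like the others. With TPM scaling the relations of Nfib with Nfic, Nfib with Nfix and Nfic with Nfix passed (r = 0.74, 0.76 and 0.77, adjusted permutation p = 0.0176). On leaving out 1 tumour, r of Nfia with Nfib ran from -0.32 (without RPM replicate 2) to 0.30, and was -0.0033 without RPM replicate 7. For Nfia with Nfic it ran from -0.29 (without RPM replicate 2) to 0.25, and was -0.10 and -0.081 without RPM replicates 5 and 7. Nfib with Nfix ran from 0.46 to 0.84 and passed without RPM replicate 10 (adjusted permutation p = 0.0151), and Nfic with Nfix ran from 0.54 to 0.79 and passed without RPM replicate 11 (adjusted permutation p = 0.0370). The counts over lists and neighbours without RPR2 replicate 3, and the relations to marker sums, were added after seeing the data. Under TPM scaling, median-of-ratios scaling and quantile normalization, 52, 57 and 57 of 66 called members, list genes, neighbours and Gm11266 stayed called. No paired analysis was possible because the labels give no replicate numbers shared between the models. With 3 RPR2 and 2 LSL/+ tumours the spread in those groups is poorly known, and depth is an estimate.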
